A study of Homo sapiens with 6 samples.

Results

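Epithelial junction and keratin genes, a list of 36 found by symbol, were followed in A549, a line of human lung adenocarcinoma cells. Of these, 33 were measured by a probe set annotated to 1 gene, out of 18417 genes tested. Where a gene had several such probe sets, the one whose mean signal over the 6 arrays was highest was used. OCLN, which encodes the tight junction protein occludin, had only a probe set shared with a pseudogene, and KRT81 and ESRP1 were not matched to a probe set. The signals of these 3 were therefore not analysed here. Both groups were A549 stable cells that had been starved of serum overnight and then kept in VP-16 for 48 h. VP-16 is etoposide, a topoisomerase II poison that breaks DNA. The groups were control cells (labelled C, 3 arrays) and cells whose genotype label is H2AX knockdown (P1, 3 arrays), where H2AX is a histone variant phosphorylated at DNA breaks. Each group holds 3 independent experiments per the design text, and the number of clones behind each stable line is not given in the sources used here. No untreated cells were analysed here, so the comparison asks how these genes differ between the groups under the drug.

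Epithelial cells are held together by several kinds of junction. Adherens junctions join neighbouring cells through E-cadherin and catenins, tight junctions seal the space between them with claudins, and desmosomes anchor keratin filaments at the membrane. Keratins assemble from an acidic and a basic partner, in simple epithelium mainly KRT18 with KRT8. Many of these genes are repressed by the SNAIL, SLUG and ZEB factors in the epithelial-mesenchymal transition, and A549 cells are known for a partly mesenchymal state that deepens with TGF-beta.

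Values below are log2 signals made with RMA, a method that corrects background, normalizes between arrays and condenses each probe set into 1 value. Differences are knockdown-labelled minus control, from limma, a linear model with a pooled estimate of the spread. Signals of different probe sets depend on their probes, so tests compare arrays, and where a percentile of mean signal is given it ranks probe sets and not amounts of RNA. The knockdown itself was not visible in the signal of H2AX: its difference was 0.10 (95% interval −0.25 to 0.45; limma adjusted p = 0.823; exact permutation test, p = 0.4), from 5.11, 5.27 and 5.26 in control replicates 1 to 3 to 5.28, 5.17 and 5.49 in the knockdown-labelled ones. Directions are therefore those of the labels. With 3 arrays per group the exact permutation test of H2AX cannot give a p below 0.1, so no conclusion is drawn from it. Array medians ran from 3.38 to 3.53, and knockdown-labelled replicate 1 stood apart, with an SD of 1.60 over its values where the other arrays had 1.71 to 1.86. Results that rest on this array are also given without it. The deposited values still differed in distribution between arrays, although RMA is named for them. A further quantile normalization changed differences given below. Across all genes, the median difference went from 0.15 in the quintile of genes with the lowest mean signal to −0.25 in the quintile with the highest. This median is given as a background for the members of the same quintile.

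The 6 epithelial markers gave a mixed picture. All 6 are members of this list, so they are no independent check of its epithelial label. The probe sets of KRT8, KRT18 and KRT7 had mean signals at the 99.8th, 99.3rd and 99.3rd percentile of genes, CDH1 at the 87.6th and KRT19 at the 65.8th. That of EPCAM, an epithelial adhesion protein often used to mark carcinoma cells, was at the 17.2nd, and a dim probe set does not show that the gene is low. Summed over 6 epithelial markers, the signal on the linear scale was 1408 to 1867 in the control arrays and 1403 to 1926 in the knockdown-labelled ones. This sum was made up mostly of KRT8, KRT18 and KRT7, whose differences were 0.24, −0.23 and −0.23. The 7 fibroblast markers summed to 79.1 to 103 and 94.4 to 115. All 7 differences were above 0 (0.04 to 0.47), where 51.5% of all genes were below 0. LUM alone was at an unadjusted p under 0.05, where 3.78% of all genes were higher. In the quintile with the lowest signal, which held LUM and DCN, 18.3% of genes were below 0 and 8.77% were higher at that p. The mean log2 signals of the 7 probe sets ran from 1.69 (LUM) to 5.15 (COL1A1). The 5 endothelial markers summed to 40.4 to 52.2 and 45.2 to 56.1. The 7 measured blood and immune markers summed to 477 to 635 and 358 to 448, without overlap, a sum made up mostly of CD68. The mean log2 signal over the 7 overlapped, at 3.77 to 3.96 and 3.71 to 3.80, with 3 differences below 0 and 4 above. Their mean log2 signals ran from 2.13 for the pan-leukocyte gene PTPRC to 8.70 for CD68 (difference −0.46), a lysosomal protein that is not limited to blood cells. The part of the fibroblast, endothelial, blood and immune markers in the results was not tested.

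No member passed the threshold of 0.05 after adjustment over all genes (0 of 33, where 0.0326% of all genes did, limma). At an unadjusted p under 0.05, 5 members were lower in the knockdown-labelled arrays, where 8.38% of all genes were, and 3 were higher, where 3.78% were. The lower ones were the claudins CLDN1 and CLDN12, the desmosomal cadherin DSG2, the protease inhibitor SPINT2 and the transcription factor ELF3. The higher ones were the desmosomal cadherin DSC2, the vesicle GTPase RAB25 and the lipid enzyme CDS1. The median difference over the 33 members was −0.03, beside −0.01 over all genes, with 17 members below 0 (51.5% of all genes were) and 16 above. Groups did not overlap for 3 members with lower values (9.82% of all genes) and for 7 with higher values (7.17%). The share of members below 0 was that of all genes, and no member's difference is established over all genes.

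**Figure D1:**
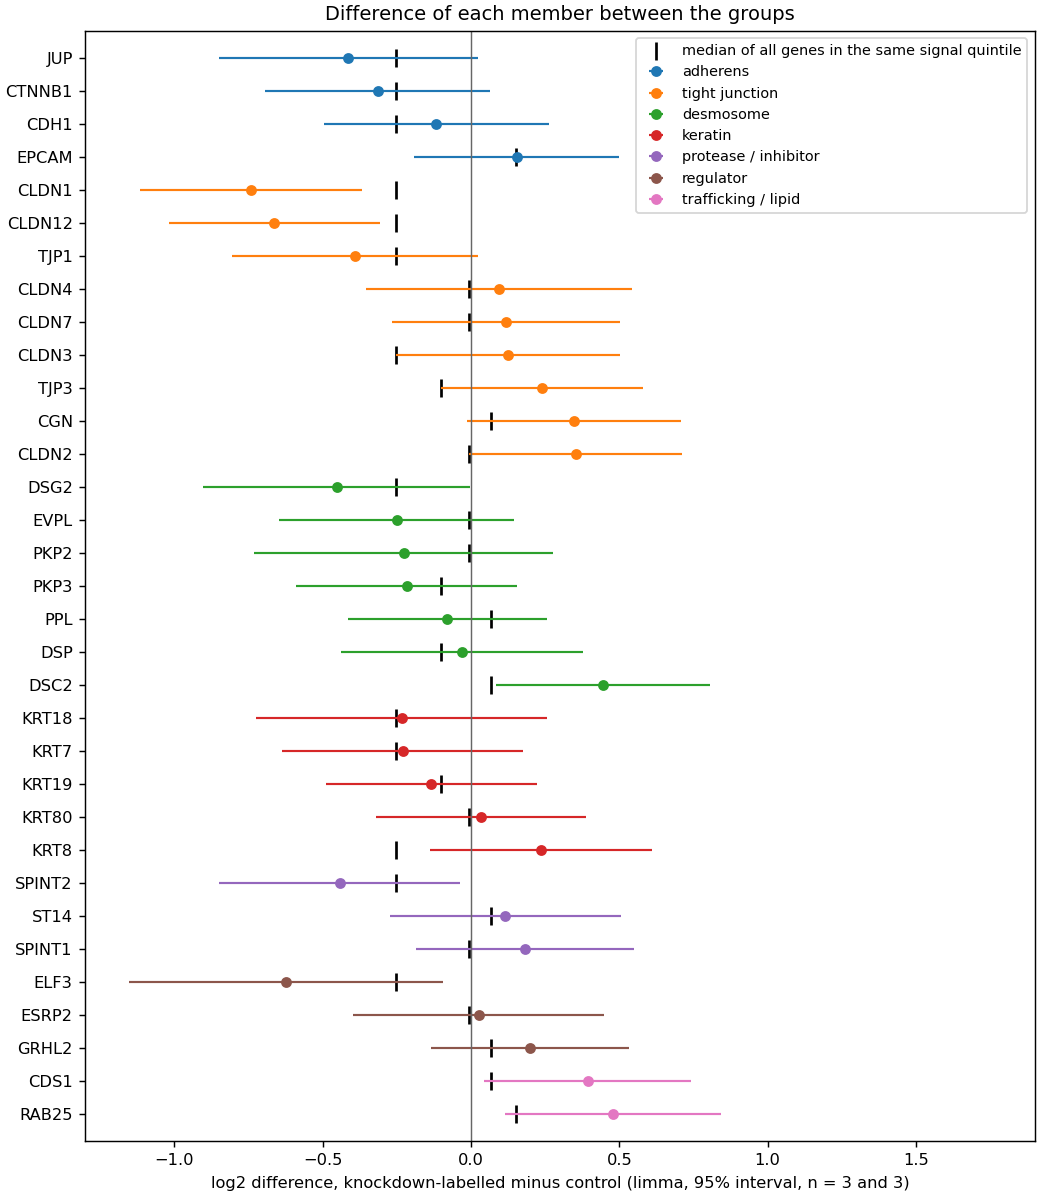
Log2 difference between the groups (x axis, knockdown-labelled minus control, limma, with 95% intervals, 3 arrays each) for each of the 33 measured members (y axis), coloured by role, with a black bar at the median of all genes in the same quintile of mean signal. CLDN1 at −0.74 and RAB25 at 0.48 lie at the ends, and the intervals of CLDN1 and CLDN12 lie below the black bar of their quintile. Those of KRT8 and DSC2 lie above their bars, and those of CLDN2 and CLDN3 only just do.

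The promoter sequences of the genes at both ends of this range are shown because SNAIL, SLUG and ZEB repressors are known to bind the E-box CACCTG in epithelial promoters. Of the 36 genes, 20 were in the RefSeq promoter table (build GRCh38.p14), and CDH1 was not among them. The 250 bases before the annotated start are printed on the gene's strand, with each CACCTG, or CAGGTG where the E-box is on the other strand, in capitals. These 2 forms cannot overlap each other. CLDN1 (at chr3:190322447-190322696 on the minus strand) and CLDN12 (chr7:90403211-90403460 on the plus strand) had the lowest differences, ELF3 (chr1:202010337-202010586 on the plus strand) and DSG2 (chr18:31497927-31498176 on the plus strand) were also among the lower members, and DSC2 (chr18:31102422-31102671 on the minus strand), CDS1 (chr4:84582877-84583126 on the plus strand) and RAB25 (chr1:156060910-156061159 on the plus strand) were the 3 higher ones. SPINT2 was not in the table.
CLDN1: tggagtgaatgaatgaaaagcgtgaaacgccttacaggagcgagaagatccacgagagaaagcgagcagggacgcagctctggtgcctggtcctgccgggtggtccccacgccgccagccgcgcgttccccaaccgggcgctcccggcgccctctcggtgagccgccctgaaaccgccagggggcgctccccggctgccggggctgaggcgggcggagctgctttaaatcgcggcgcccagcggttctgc
CLDN12: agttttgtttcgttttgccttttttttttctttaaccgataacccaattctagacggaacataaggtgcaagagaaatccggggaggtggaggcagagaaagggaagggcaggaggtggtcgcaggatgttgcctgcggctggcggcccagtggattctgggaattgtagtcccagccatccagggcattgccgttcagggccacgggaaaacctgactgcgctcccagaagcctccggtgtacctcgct
ELF3: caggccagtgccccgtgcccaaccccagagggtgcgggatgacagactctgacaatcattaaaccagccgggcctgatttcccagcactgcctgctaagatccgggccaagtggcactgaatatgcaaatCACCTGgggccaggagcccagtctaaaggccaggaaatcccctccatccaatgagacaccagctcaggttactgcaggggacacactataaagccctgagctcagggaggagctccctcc
DSG2: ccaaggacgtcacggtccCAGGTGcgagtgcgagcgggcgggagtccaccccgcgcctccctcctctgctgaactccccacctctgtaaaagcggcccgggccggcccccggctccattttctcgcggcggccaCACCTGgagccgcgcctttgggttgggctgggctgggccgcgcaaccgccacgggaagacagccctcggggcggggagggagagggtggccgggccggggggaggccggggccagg
DSC2: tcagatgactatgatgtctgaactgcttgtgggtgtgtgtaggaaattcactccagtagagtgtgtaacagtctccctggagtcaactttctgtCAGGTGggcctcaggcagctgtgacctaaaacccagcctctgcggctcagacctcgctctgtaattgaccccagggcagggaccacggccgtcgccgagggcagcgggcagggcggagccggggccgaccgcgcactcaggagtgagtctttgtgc
CDS1: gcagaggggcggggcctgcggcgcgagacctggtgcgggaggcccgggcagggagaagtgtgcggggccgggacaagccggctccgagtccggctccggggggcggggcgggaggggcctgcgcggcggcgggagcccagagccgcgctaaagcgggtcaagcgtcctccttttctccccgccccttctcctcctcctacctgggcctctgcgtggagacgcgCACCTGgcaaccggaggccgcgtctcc
RAB25: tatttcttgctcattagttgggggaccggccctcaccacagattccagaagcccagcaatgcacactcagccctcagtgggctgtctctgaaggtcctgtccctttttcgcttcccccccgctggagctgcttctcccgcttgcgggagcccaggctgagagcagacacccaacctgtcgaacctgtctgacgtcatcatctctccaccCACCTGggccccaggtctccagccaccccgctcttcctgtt
In this window the E-box was present in 8 of the 20 members (40.0%) and in 17.5% of all 27305 promoters in the table. It stood once each before DSC2, CDS1 and RAB25, with its first base at −156, −27 and −41 from the start, once at −120 before ELF3, and at −232 and −116 before DSG2. The E-box was also before TJP1 (difference −0.39), DSP (−0.03) and OCLN, whose signal was not analysed. These letters were not in the windows of CLDN1 and CLDN12. They were also not in those of CLDN2, CGN and TJP3, which were higher without overlap of the groups. A match is a description of sequence, and binding was not measured here.

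Of the tight junction genes, CLDN1 and CLDN12 had the lowest differences of all members. CLDN1, a sealing claudin widespread in epithelia, read 7.58, 7.12 and 7.18 in control replicates 1, 2 and 3 and 6.53, 6.45 and 6.68 in the knockdown-labelled replicates. All 3 knockdown-labelled arrays lay below every control. Its difference was −0.74 ± 0.17 (SE; 95% interval −1.12 to −0.37), which is 59.8% of the control signal, with a limma adjusted p of 0.209 over all genes. CLDN12, a claudin that lacks the usual PDZ-binding tail, read 6.97, 6.64 and 6.65 in the controls and 5.97, 6.13 and 6.18 in the knockdown-labelled arrays, again with no overlap. Its difference was −0.66 ± 0.16 (SE), or 63.1% of control (limma adjusted p = 0.227). These 2 claudins lay below the median of their signal quintile by 0.49 and 0.41, and they were the only members at an unadjusted p under 0.05 in all 14 alternatives run, with differences from −0.83 to −0.46 for CLDN1 and from −0.72 to −0.40 for CLDN12. Under array weights, a setting with 191 genes past the threshold, CLDN1 passed it (limma adjusted p = 0.0455). Over the 14 alternatives its adjusted p ran from 0.0455 to 0.928.

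CLDN2, a claudin that forms channels for cations and water, read 3.61, 3.74 and 3.63 in the controls and 3.87, 4.26 and 3.90 in the knockdown-labelled arrays. The groups did not overlap, and the difference was 0.35 ± 0.17 (SE; limma adjusted p = 0.418), or 0.23 without knockdown-labelled replicate 2. CLDN3 (0.13), CLDN4 (0.10) and CLDN7 (0.12), claudins of simple epithelia, overlapped between the groups. CLDN4 read 4.31 in knockdown-labelled replicate 1 but 3.71 and 3.44 in replicates 2 and 3, against 3.66 to 3.83 in the controls, and without replicate 1 its difference was −0.15. Within each array, the log2 value of CLDN2 minus that of CLDN1 went from −3.64 ± 0.30 to −2.54 ± 0.31 (SD, n = 3 each), an unequal change of 1.09 between these claudins, or 0.84 after quantile normalization. The medians of their quintiles alone differ by 0.24. This pair is 1 of 4 chosen after their values were seen, which are described without a test.

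None of the 3 measured genes of the cytoplasmic plaque of the tight junction was at an unadjusted p under 0.05. TJP1, the scaffold ZO-1, read 7.22, 6.80 and 7.01 in the controls and 6.34, 6.55 and 6.96 in the knockdown-labelled arrays. The groups overlapped through knockdown-labelled replicate 3, and the difference of −0.39 (95% interval −0.81 to 0.02) shrank to −0.16 after quantile normalization and −0.25 without knockdown-labelled replicate 1. CGN, which encodes the adaptor cingulin, read 2.95, 3.41 and 3.15 in the controls against 3.50, 3.56 and 3.49, with no overlap (difference 0.35 ± 0.17, SE; limma adjusted p = 0.426). TJP3, the scaffold ZO-3, also did not overlap, with 4.34 to 4.54 in the controls and 4.59 to 4.81 in the knockdown-labelled arrays. Of the 9 measured tight junction members, 3 were below 0 (51.5% of all genes were) and 6 above, and CLDN1 and CLDN12 alone were lower at an unadjusted p under 0.05 (8.38% of all genes were).

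**Figure D2:**
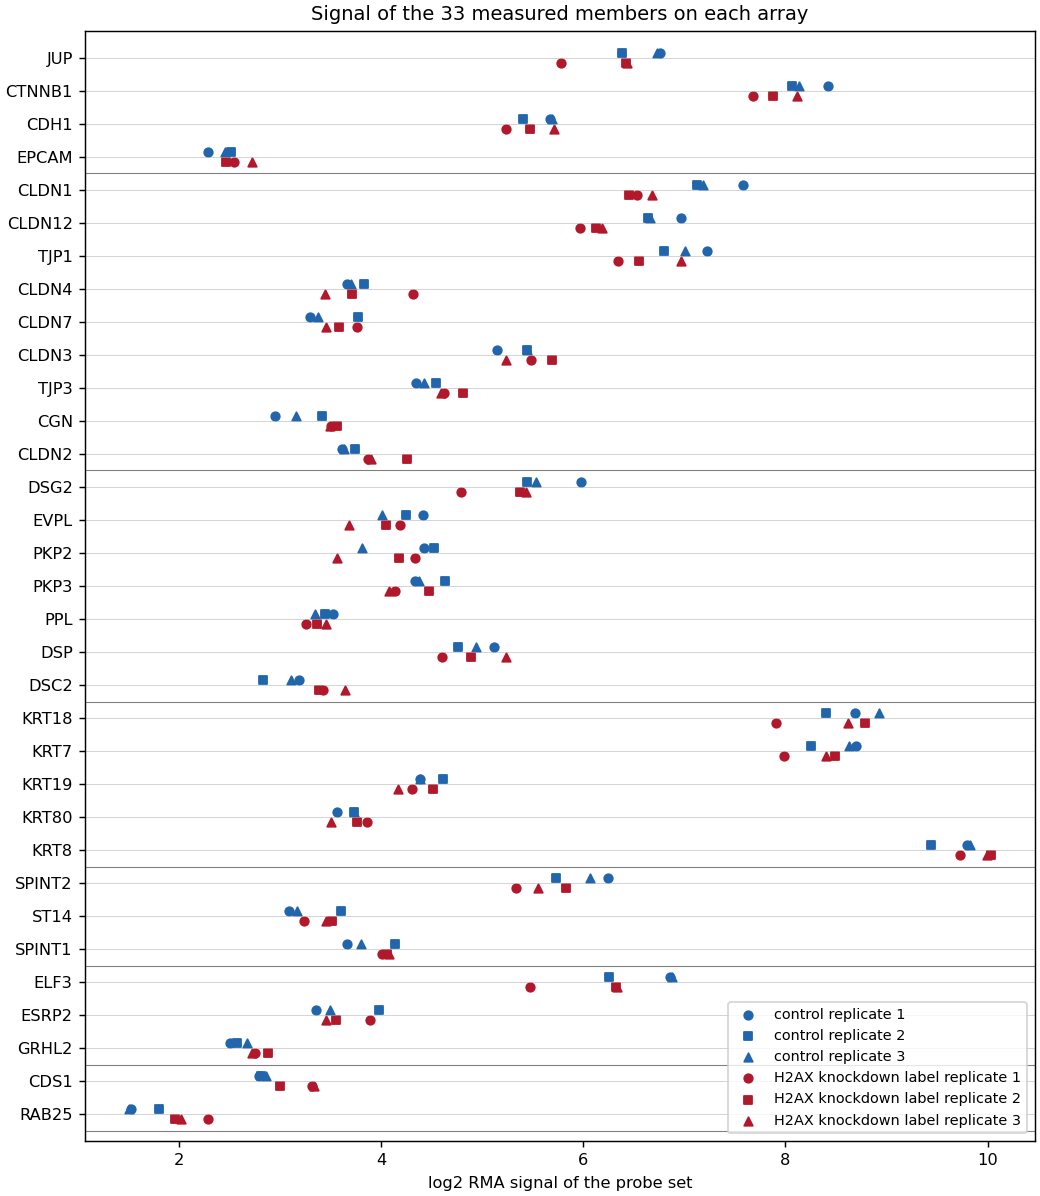
Log2 RMA signal (x axis) of the 33 measured members (y axis) on each of the 6 arrays, with controls in blue, knockdown-labelled arrays in red and the replicate number as the symbol; lines part the roles. CLDN1 and CLDN12 separate to the left in the knockdown-labelled arrays, CLDN2, CGN and DSC2 to the right, and ELF3 and DSG2 are drawn out by knockdown-labelled replicate 1.

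Adherens junction genes gave no such separation. CDH1, which encodes E-cadherin, read 5.67, 5.40 and 5.69 in the controls and 5.23, 5.47 and 5.71 in the knockdown-labelled arrays. The groups overlapped, and the difference of −0.12 had a 95% interval of −0.50 to 0.26 (limma adjusted p = 0.806), so changes to between 70.9% and 120% of control were within the error. Its sign turned to 0.06 after quantile normalization, 0.09 after cyclic loess and 0.0018 without knockdown-labelled replicate 1. CTNNB1, or beta-catenin, which links cadherins to the cytoskeleton and also carries Wnt signals, read 8.42, 8.06 and 8.13 against 7.67, 7.87 and 8.12 in the knockdown-labelled arrays. Its difference was −0.31 (95% interval −0.69 to 0.07), close to the −0.25 of its signal quintile, and it was −0.09 after quantile normalization and −0.21 without control replicate 1 or knockdown-labelled replicate 1. JUP, or plakoglobin, which serves both adherens junctions and desmosomes, ranged from 6.38 to 6.76 in the controls and from 5.77 to 6.43 in the knockdown-labelled arrays, with a difference of −0.41 that was −0.20 without knockdown-labelled replicate 1.

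EPCAM read 2.28, 2.52 and 2.46 in the controls and 2.54, 2.46 and 2.72 in the knockdown-labelled arrays. The difference of 0.15 (95% interval −0.19 to 0.50) matched the median of its quintile, the lowest in signal. A second probe set of EPCAM had the opposite sign, −0.18 (95% interval −1.08 to 0.72), and with both averaged the difference was −0.01. At such signals a change is hard to read.

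The desmosomal cadherins DSG2 and DSC2 differed in sign. DSG2, the desmoglein of simple epithelia, read 5.97, 5.44 and 5.53 in the controls and 4.78, 5.38 and 5.43 in the knockdown-labelled arrays. The groups were separated only narrowly, by the gap between control replicate 2 and knockdown-labelled replicate 3. The difference was −0.45 ± 0.21 (SE; limma adjusted p = 0.410), and −0.25 without knockdown-labelled replicate 1. DSC2, a desmocollin of simple epithelia, read 3.18, 2.83 and 3.10 in the controls and 3.42, 3.38 and 3.64 in the knockdown-labelled arrays, with no overlap. Its difference was 0.45 ± 0.17 (SE; limma adjusted p = 0.349), and it was 0.38 after quantile normalization and 0.48 without knockdown-labelled replicate 1. It was higher at an unadjusted p under 0.05 in 11 of the 13 alternatives that tested it. The within-array value of DSC2 minus DSG2 differed by 0.90 between the groups, where the medians of their quintiles differ by 0.32.

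The plaque and envelope proteins of desmosomes overlapped between the groups. DSP, or desmoplakin, which ties keratin to the plaque, ranged from 4.76 to 5.11 in the controls and from 4.60 to 5.23 in the knockdown-labelled arrays, and its difference of −0.03 changed sign in 5 of 14 alternatives. PKP2 (−0.23, with a change of sign in 2 of 14) and PKP3 (−0.22) are plakophilins of the plaque, and PPL (−0.08) and EVPL (−0.25) are the plakins periplakin and envoplakin. PKP2 spread by more within the groups than between them, from 3.81 to 4.52 in the controls and from 3.56 to 4.33 in the knockdown-labelled arrays. Of the 7 members of this role, 6 were below 0 (51.5% of all genes were). DSG2 was lower and DSC2 higher at an unadjusted p under 0.05, where 8.38% and 3.78% of all genes were.

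Of the keratins, KRT8 differed in sign from KRT18 and KRT7. KRT8 read 9.79, 9.44 and 9.83 in the controls and 9.73, 10.04 and 10.00 in the knockdown-labelled arrays. Knockdown-labelled replicates 2 and 3 were above all controls and replicate 1 was among them. The difference was 0.24 ± 0.17 (SE; 95% interval −0.14 to 0.61; limma adjusted p = 0.594), while the median of its quintile was −0.25. It was 0.36 after quantile normalization and 0.41 after cyclic loess, both at an unadjusted p under 0.05 in limma, but 0.11 with control replicate 2 left out and 0.18 with knockdown-labelled replicate 2 left out. KRT18, its acidic partner, read 8.69, 8.40 and 8.92 against 7.91, 8.79 and 8.62, with a difference of −0.23 that became 0.03 without knockdown-labelled replicate 1. KRT7, another basic keratin of simple epithelia, read 8.70, 8.25 and 8.62 against 7.98, 8.49 and 8.40, also with overlap and a difference of −0.23 (95% interval −0.64 to 0.18), which was 0.01 after cyclic loess.

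Within each array, KRT8 minus KRT18 was 1.10, 1.03 and 0.90 in the controls and 1.82, 1.25 and 1.37 in the knockdown-labelled arrays. The groups did not overlap, and the unequal change was 0.47, or 0.41 after quantile normalization and 0.30 without knockdown-labelled replicate 1. KRT8 minus KRT7 changed by a like amount, 0.47, from 1.16 ± 0.06 to 1.63 ± 0.10 (SD, n = 3 each). KRT8 and KRT18 have many processed pseudogenes, so the values of single probe sets are uncertain. A second KRT18 probe set gave −0.10, with 8.08, 7.85 and 8.13 in the controls and 7.24, 8.25 and 8.28 in the knockdown-labelled arrays. With it the unequal change of KRT8 and KRT18 is smaller and comes mostly from knockdown-labelled replicate 1. KRT19, an acidic keratin of simple epithelia (−0.13), and KRT80 (0.03, with a change of sign in 4 of 13 alternatives) overlapped between the groups. None of the 5 measured keratins was at an unadjusted p under 0.05.

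ELF3, an ETS factor of epithelial cells, had the widest spread of the regulators. It read 6.86, 6.26 and 6.88 in the controls and 5.47, 6.32 and 6.33 in the knockdown-labelled arrays. Control replicate 2 lay below 2 of the knockdown-labelled arrays, so the groups overlapped. The difference was −0.62 ± 0.25 (SE; limma adjusted p = 0.360), and −0.33 without knockdown-labelled replicate 1, where it was no longer at an unadjusted p under 0.05. GRHL2, a grainyhead factor that maintains epithelial genes, was dim and did not overlap, with 2.50 to 2.67 in the controls and 2.72 to 2.88 in the knockdown-labelled arrays (difference 0.20, 0.06 after quantile normalization). ESRP2, an epithelial splicing regulator, was at 0.03, and its sign changed in 6 of 13 alternatives.

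SPINT2, a Kunitz inhibitor of membrane serine proteases, read 6.24, 5.73 and 6.06 in the controls and 5.34, 5.83 and 5.55 in the knockdown-labelled arrays. The groups overlapped, with a difference of −0.44 ± 0.19 (SE; limma adjusted p = 0.382), or −0.25 after quantile normalization. Its target ST14, the protease matriptase, was at 0.12 and the related inhibitor SPINT1 at 0.18, both with overlap.

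RAB25, a GTPase of apical recycling endosomes, had the highest difference of the members. It read 1.52, 1.80 and 1.50 in the controls and 2.29, 1.95 and 2.02 in the knockdown-labelled arrays, with no overlap. The difference was 0.48 ± 0.17 (SE; limma adjusted p = 0.326), against a median of 0.15 in its quintile, and 0.30 after quantile normalization. RAB25 was higher at an unadjusted p under 0.05 in 10 of the 13 alternatives that tested it. CDS1, which makes CDP-diacylglycerol for phosphoinositide synthesis, read 2.79, 2.81 and 2.86 in the controls and 3.31, 2.997 and 3.33 in the knockdown-labelled arrays. Its difference was 0.39 ± 0.16 (SE; limma adjusted p = 0.369), and it was at that unadjusted p in 5 of 13 alternatives. Both signals were dim, at the 2.73rd and 30.0th percentile of genes.

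The sign of a member's difference followed its signal, as it did for all genes. Of the 13 members in the quintile with the highest signal, 11 were below 0, with a median of −0.39, and 5 (38.5%) were lower at an unadjusted p under 0.05. In that quintile as a whole 85.3% of genes were below 0, the median was −0.25 and 22.9% were lower at that p. The exceptions among the 13 were KRT8 and CLDN3. Of the 20 members in the other quintiles, 14 were above 0 and 6 (30.0%) below, with a median of 0.12. The share of all genes below 0 rose over these quintiles from 18.3% in the lowest to 66.1% in the next to highest. Pearson's r between mean signal and difference was −0.57 over the 33 members and −0.51 over all genes, and over the members it was −0.40 without knockdown-labelled replicate 1, −0.32 after quantile normalization and −0.26 after cyclic loess. These are descriptions, since all members share the same 6 arrays.

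**Figure D3:**
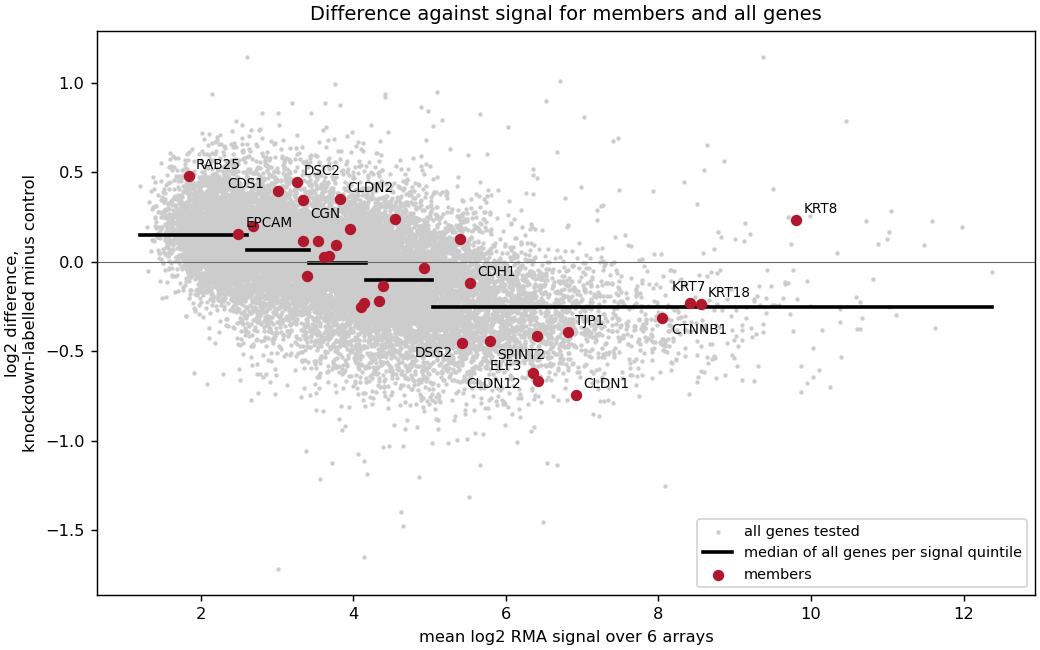
Log2 difference between the groups (y axis) against mean log2 signal over 6 arrays (x axis) for all 18417 genes in grey and the 33 members in red, with black lines at the median of each quintile of signal. The lines step from 0.15 to −0.25 from left to right; KRT8 lies above and CLDN1 and CLDN12 below the line of their quintile.

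Part of the spread came with a single array. Knockdown-labelled replicate 1 held the lowest of the 6 values in 10 of the 13 members of the highest quintile. Relative to the control mean, these 13 had a median of −0.68 on that array, −0.20 on knockdown-labelled replicate 2 and −0.12 on replicate 3, while it was 0.20, −0.21 and 0.10 on control replicates 1, 2 and 3. For the 20 other members the medians were 0.17, 0.09 and 0.14 on the knockdown-labelled arrays and −0.08, 0.10 and −0.05 on the controls. Without knockdown-labelled replicate 1, CLDN1 and CLDN12 were still lower at an unadjusted p under 0.05 (−0.73 and −0.60), where 5.33% of all genes were. DSG2, SPINT2 and ELF3 were not. CLDN2, DSC2 and RAB25 were higher, where 2.7% of all genes were, and CDS1 was no longer at that p. After quantile normalization or cyclic loess the same 2 claudins were lower at that p, as were 5.58% and 5.23% of all genes. CLDN2, DSC2, TJP3 and KRT8 were higher, where 2.54% and 2.98% of all genes were. RAB25 and CDS1 were not at that p after either.

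**Figure D4:**
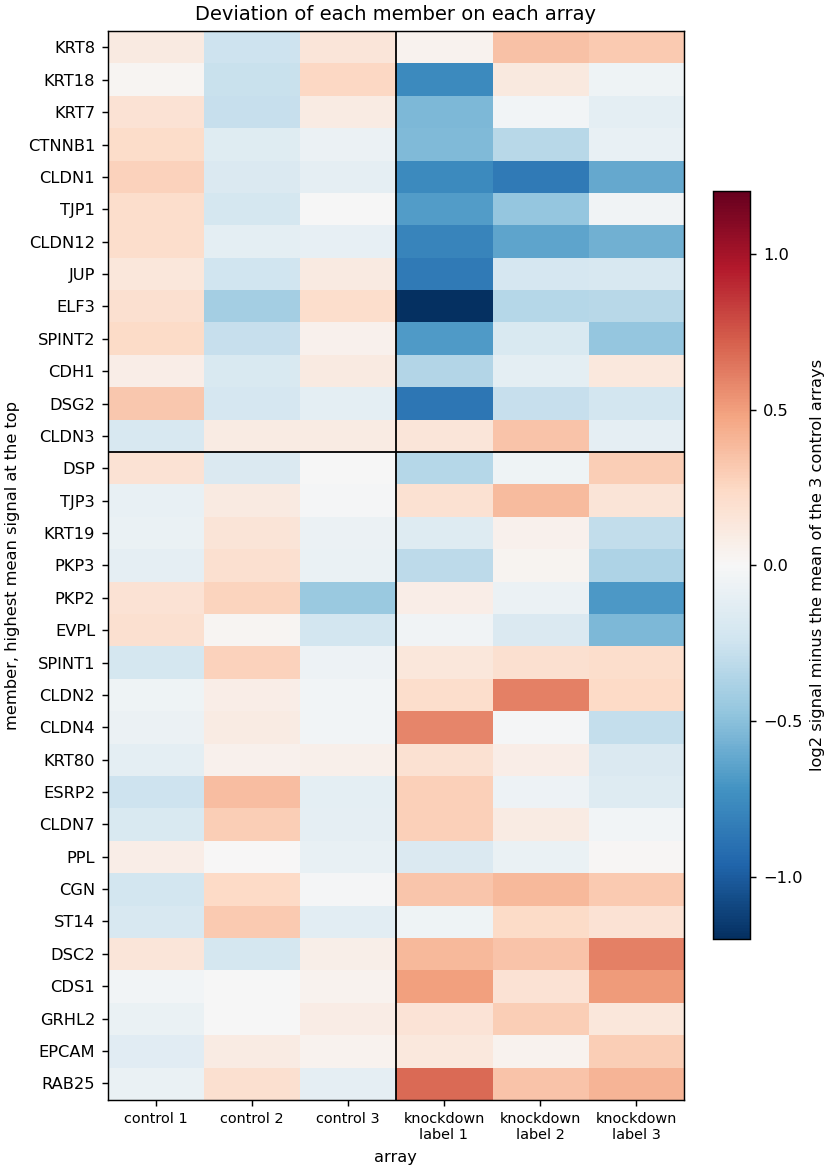
Log2 signal of each member (rows, highest mean signal at the top) on each array (columns) minus the mean of the 3 control arrays, blue for lower and red for higher; the horizontal line closes the 13 members of the highest quintile. Knockdown-labelled replicate 1 has the deepest blue for most of them, whereas CLDN1 and CLDN12 are blue on all 3 knockdown-labelled arrays and KRT8 is not blue on any of these 3.

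**Figure D5:**
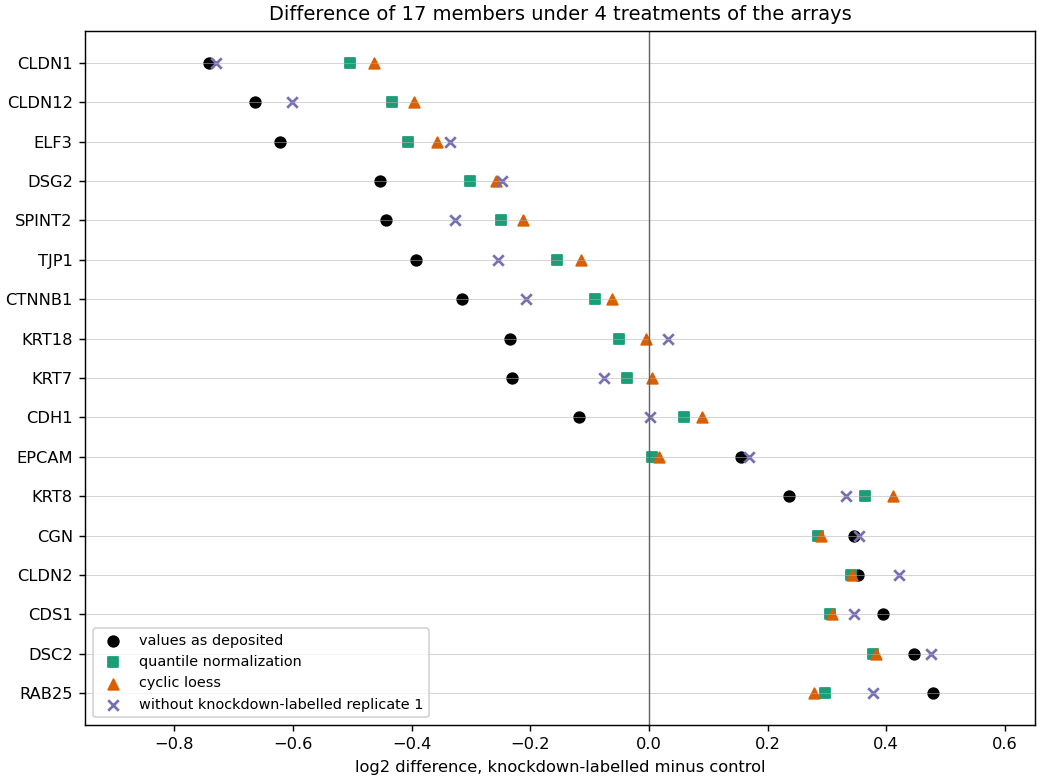
Log2 difference (x axis, knockdown-labelled minus control) of the 17 members described by array (y axis), from the deposited values, after quantile normalization, after cyclic loess and without knockdown-labelled replicate 1. CLDN1 and CLDN12 stay left of 0 and DSC2, CLDN2 and RAB25 right of 0 in all 4, while CDH1, KRT7 and KRT18 lie at or cross 0.

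Other genes of the same structures, on lists of junction, polarity, keratin, regulator and mesenchymal genes, gave 0 of 99 measured genes past the adjusted threshold in limma (110 were listed), with 5 lower and 3 higher ones when p was left unadjusted (under 0.05). These are 5.05% and 3.03% of the 99, below the 8.38% and 3.78% of all genes, so the genes named next are given as values only, each with its value after quantile normalization. CLDN14, a sealing claudin, was at 0.58, and 0.56 after quantile normalization (3.12 to 3.66 in the controls, 3.79 to 4.20 in the knockdown-labelled arrays), the sole 1 of the 19 other tight junction genes at that p. Among 13 polarity genes this was PRKCI, an atypical protein kinase C (−0.39, then −0.20), and among 8 other desmosome genes PERP, a tetraspan protein and p53 target (−0.38, then −0.16). ITGB4, the hemidesmosome integrin, was at 0.38, then 0.57. None of the 12 other adherens junction genes or the 17 other keratins was at that p. Of 12 epithelial regulators it was FOXA1, a forkhead factor of lung epithelium (−0.47, then −0.39). Among 14 mesenchymal genes and their regulators, SNAI2, which encodes the repressor SLUG, was at −0.85 (then −0.70), the growth factor TGFB2 at −0.82 (then −0.61) and fibronectin, FN1, at 0.56 (then 0.71). ZEB1 (0.13), VIM (−0.23, but 0.04 after cyclic loess) and CDH2 (−0.31), named outside the rule for the epithelial-mesenchymal transition, overlapped between the groups.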

How the data were processed

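RNA was measured on 6 Affymetrix arrays, 1 per sample. The authors deposited RMA log2 signals of 33297 probe sets; the submitters' processing notes name RMA with no version, which is not given in the sources used here, and the log2 scale was read from the values (0.611 to 13.2). Signal over background cannot be read from them, so no gene was called absent, and RMA compresses differences of dim genes. The number of arrays limits the precision.

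Probe sets were named through the platform's annotation (19460 with 1 gene, 1754 with several, 12083 with none), and 19429 were matched by Entrez number to RefSeq symbols. Groups came from sample titles. Genes were fitted with limma 3.58.1 (R 4.3.3) without a covariate, 2-sided, with Benjamini-Hochberg adjustment over 18417 genes; figures used matplotlib 3.10.9. The members and lists were chosen with earlier results of these data known. Described by array were members at an unadjusted p under 0.05, those without overlap and at least 0.25 apart, the 6 with the highest signal, CDH1 and EPCAM; per other list up to 4 genes at that p were named. Alternatives were the replicate number as a block, only genes above the median signal, quantile normalization, cyclic loess, subtraction of array medians, averaged probe sets, array weights, a robust variance trend and leaving out each array.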

Additional observations from a re-analysis of the deposited data

How the results depend on the processing

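H2AX was not past the threshold in any of the 14 alternatives. The count of members past the adjusted threshold moved from 0 only with array weights, to 1 (CLDN1, −0.69, limma adjusted p = 0.0455), where 191 of all genes passed. There the count of genes on the other lists moved from 0 to 2. That of members higher at an unadjusted p under 0.05 moved to 5, where 7.54% of all genes were higher. The 5 lower members at an unadjusted p under 0.05 became 2 after quantile normalization and after cyclic loess, where 5.58% and 5.23% of all genes were lower. They became 3 with the replicate number as a block, where 6.97% of all genes were lower and 2.97% higher. That block did not pair the samples: same-numbered arrays had correlations of −0.31, −0.02 and 0.07 of their deviations from the group means, and 6 members in all were at that p with it (8 without). With genes below the median signal filtered out, 0 members were higher at that p (1.32% of the genes kept were). The median difference was then −0.23, since the members with low signal are left out. The median was 0.0055 after quantile normalization, 0.0072 after cyclic loess, 0.0104 with array weights and −0.0802 with array medians subtracted. With each array left out in turn it ran from −0.0564 to 0.0036. The lower members then numbered from 2 (without knockdown-labelled replicate 1, or without replicate 1 or 3 of the controls) to 7. The higher ones numbered from 1 (without control replicate 3 or knockdown-labelled replicate 3) to 3. Over the same fits, from 3.34% to 10.9% of all genes were lower and from 1.78% to 4.98% higher.

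Signs turned for CDH1 (0.0594 after quantile normalization, 0.0890 after cyclic loess, and from −0.237 to 0.0018 with each array left out, the latter without knockdown-labelled replicate 1), KRT7 (0.0050 after cyclic loess), KRT18 (from −0.409 to 0.0328, the latter without the same array) and EPCAM (−0.0127 with probe sets averaged); the cause was not tested. For the 17 members described by array, 226 of 233 alternative values kept sign and side of the threshold, 6 turned and 1 gained the call. As no member was called, this count says little about stability. Over all 33 members, 24 kept their sign in every alternative that tested them and 9 did not. The replicate block, the signal filter and the robust variance trend leave a difference unchanged by design. Averaged probe sets change only those of EPCAM and KRT18. Counts of sign changes out of the alternatives include these settings, where a sign could not turn.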
